A study of Rattus norvegicus with 6 samples.

Results

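The genes described are those of the proteasome, its activators and its assembly factors, measured in blood vessel endothelial cells of the skin of Il33 knockout and wildtype rats. They were taken as every gene whose symbol begins with Psm, a letter from a to g and a number, which gave 46 of the 15037 genes named on the array, each with 1 probeset. The group was chosen because 1 of its members, Psme4, was higher in all knockout arrays, so the differences of its members between the genotypes are given as descriptions with no test. Of the 46 genes, 43 encode subunits, activators, the inhibitor PI31 or assembly factors and were bright enough to be tested. Psma8, the alpha subunit of testis, had a mean log2 expression of 3.26, under the minimum of 3.51, and was left out. Psmc3ip, a cofactor of meiotic recombination, and Psme3ip1, a binding partner of the activator PA28 gamma, match the rule by symbol alone and are kept apart.

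Total RNA came from 3 Il33 knockout animals (28 and 27, both female, and 52, a male) and from 3 wildtype animals (34 and 45, both female, and 37, a male), all Sprague-Dawley rats. Abdominal skin had been digested with collagenase I and DNase I, cells carrying CD45 (leukocytes) and then Lyve-1 (lymphatic endothelium) were removed on magnetic columns, and cells carrying CD31 were retained. How the knockout allele was made, whether it is present in every cell, and the age of the animals do not stand in the labels. Values are log2 expression, on which a difference of 1 is a doubling, and those of the knockout arrays are listed as 28, 27 and 52 and those of the wildtype arrays as 34, 45 and 37.

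The proteasome is the main protease of the cytosol and nucleus. Its barrel-shaped core is built of outer alpha rings, which form the gate, and inner beta rings, which hold the catalytic sites, and the regulatory particle, with its ATPase base and its lid, binds, unfolds and feeds in proteins marked with ubiquitin. Other caps (the PA28 proteins and PA200) open the gate without ubiquitin, and interferon replaces the catalytic beta subunits with those of the immunoproteasome, which supplies peptides for MHC class I. Endothelial cells carry both forms of the core.

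Promoter sequence is shown for 3 genes on which the results turn: Psme4, which separated the genotypes, Psmb8, the immunoproteasome gene with the widest range, and Psmf1, which had the smallest p between the sexes. Each window runs 5′ to 3′ on the gene's own strand from 250 bases before to 50 bases after the annotated start, in RefSeq's annotation of GRCr8. Capitals mark matches to 3 motifs searched on both strands: TGACNNNGC (the core of the antioxidant response element, bound by the factors that Nfe2l1 and Nfe2l2 encode), CCAAT (bound by nuclear factor Y) and GAAANNGAAA (the core of the interferon-stimulated response element). No matches to different motifs overlapped in these windows. The match in Psme4 (chr14:108706393-108706692, plus strand) is to the first motif. Psmb8 (chr20:4656982-4657281, minus strand) holds a match to the second and, across its start, one to the third. Psmf1 (chr3:160720866-160721165, minus strand) holds one to the second.
Psme4: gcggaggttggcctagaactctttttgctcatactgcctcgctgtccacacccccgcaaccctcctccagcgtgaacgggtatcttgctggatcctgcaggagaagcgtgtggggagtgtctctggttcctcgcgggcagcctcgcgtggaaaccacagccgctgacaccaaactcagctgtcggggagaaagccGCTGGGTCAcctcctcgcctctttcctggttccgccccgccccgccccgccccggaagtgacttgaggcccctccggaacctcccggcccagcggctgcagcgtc
Psmb8: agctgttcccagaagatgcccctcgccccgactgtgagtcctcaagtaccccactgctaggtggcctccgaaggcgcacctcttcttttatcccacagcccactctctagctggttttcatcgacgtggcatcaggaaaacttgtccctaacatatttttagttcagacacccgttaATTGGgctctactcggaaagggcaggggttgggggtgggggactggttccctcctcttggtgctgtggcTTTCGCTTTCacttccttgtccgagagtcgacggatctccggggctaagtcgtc
Psmf1: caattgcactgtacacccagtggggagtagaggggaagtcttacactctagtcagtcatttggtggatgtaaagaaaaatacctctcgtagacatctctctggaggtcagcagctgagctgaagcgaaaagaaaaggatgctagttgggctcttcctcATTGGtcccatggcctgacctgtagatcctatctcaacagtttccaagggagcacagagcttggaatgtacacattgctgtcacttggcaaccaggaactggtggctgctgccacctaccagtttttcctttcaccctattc

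Windows were found for 42 of the 46 genes. The first motif was in 8 of the 42 (19%), against 12.1% of all 33469 windows, and these were Psma3, Psmb2, Psmb5, Psmb6, Psmd1, Psmd3, Psmd9 and Psme4. The second was in 22 (52.4%), against 37.5% of all windows. The third was in 7 (16.7%), against 3.92% of all windows, and these were Psma4, Psmb3, Psmb8, Psmb10, Psmd7, Psme2 and Psmg4, with no match in Psmb9. Each member was counted once, but the 33469 windows were not limited to genes named on the array, so the shares compare unlike sets. A match describes these letters and is not evidence that a factor binds there.

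The targeted gene separated the genotypes. Il33, an alarmin cytokine kept in the nucleus of many barrier cells, had 8.07, 8.37 and 9.82 in the knockout arrays, against 13.86, 16.32 and 16.60 in the wildtype arrays. It fell by 6.84 (SE 0.73, limma adjusted p = 0.0438) and was the 1 gene called of 11577 tested (0.00864%), while 229 genes had an unadjusted p under 0.05. Markers of blood endothelium were bright on every array, the list having a median of 14.88 to 14.93 on knockout and 14.40 to 14.88 on wildtype arrays. Keratinocyte markers (8 of 13 on the array) were still detected after the sort, with medians of 10.72, 7.98 and 7.98 on the knockout arrays, against 13.88, 10.84 and 7.51 on the wildtype arrays. Leukocyte markers (13 of 14 on the array) had medians of 4.59 to 5.35 on knockout and 4.18 to 5.17 on wildtype arrays, around the median of the background probes (4.55 to 4.73). Some of these markers lay above the background on every array: Cd68 (8.85 to 10.72), Lcp1 (9.29 to 10.44), Lyz2 (6.65 to 10.76) and Cd74 (6.45 to 9.91). Laptm5 (4.85 to 8.29) came close to the background on both male arrays, with 4.85 against 4.73. All were named after their values were seen. Fibroblast medians were 8.82 to 10.18 on knockout and 9.41 to 12.02 on wildtype arrays. Erythroid medians (6 of 7 markers on the array) were 6.15 to 9.25 on knockout and 5.18 to 6.58 on wildtype arrays. Of that list Ahsp (2.40 to 3.68) and Slc4a1 (2.81 to 3.65) lay below the background probes. The globin genes Hba-a1, Hba-a3 and Hbb lay above them on every array. Pericyte and smooth muscle medians were 10.13 to 11.40 on knockout and 9.20 to 10.85 on wildtype arrays. In such sorted samples, fewer cells of a type and less RNA per cell cannot be told apart.

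Psme4 encodes PA200, the large single-chain cap of the core particle, known from mouse to take part in the breakdown of acetylated histones. Its log2 expression was 9.20, 9.45 and 9.84 in the knockout arrays, against 8.03, 8.59 and 7.55 in the wildtype arrays. The lowest knockout value lay above the highest wildtype value, and the male pair held both the highest knockout and the lowest wildtype value. Its mean was 9.50 ± 0.32 in the knockout and 8.06 ± 0.52 in the wildtype (SD, n = 3 each), a difference of 1.44. The difference was 1.02 in females and 2.29 in the male pair. With the keratinocyte median of each array as a covariate the difference was 1.5, and with high or low signal of the spiked control transcripts as a block it was 1.49.

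The other caps differed less between the genotypes, and their groups overlapped. Psme1 and Psme2 encode the alpha and beta subunits of PA28, which assemble into 1 ring and are induced by interferon gamma. Psme1 had 15.38, 16.27 and 16.95 in the knockout, against 14.96, 16.25 and 15.69 in the wildtype, a difference of 0.57 with means of 16.20 ± 0.79 and 15.63 ± 0.65. Psme2 had 10.30, 10.12 and 10.01 in the knockout, against 10.67, 10.46 and 10.06 in the wildtype, a difference of -0.25 with means of 10.14 ± 0.15 and 10.40 ± 0.31. The arrays were ordered differently by these ring partners: knockout 52 had the highest Psme1 and the lowest Psme2 value, and wildtype 34 the lowest Psme1 and the highest Psme2 value. Psme3, the nuclear PA28 gamma, had 10.64, 10.62 and 10.89 in the knockout, against 10.40, 10.59 and 10.69 in the wildtype, a difference of 0.16 over the narrowest range of the caps (0.49).

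**Figure D1:**
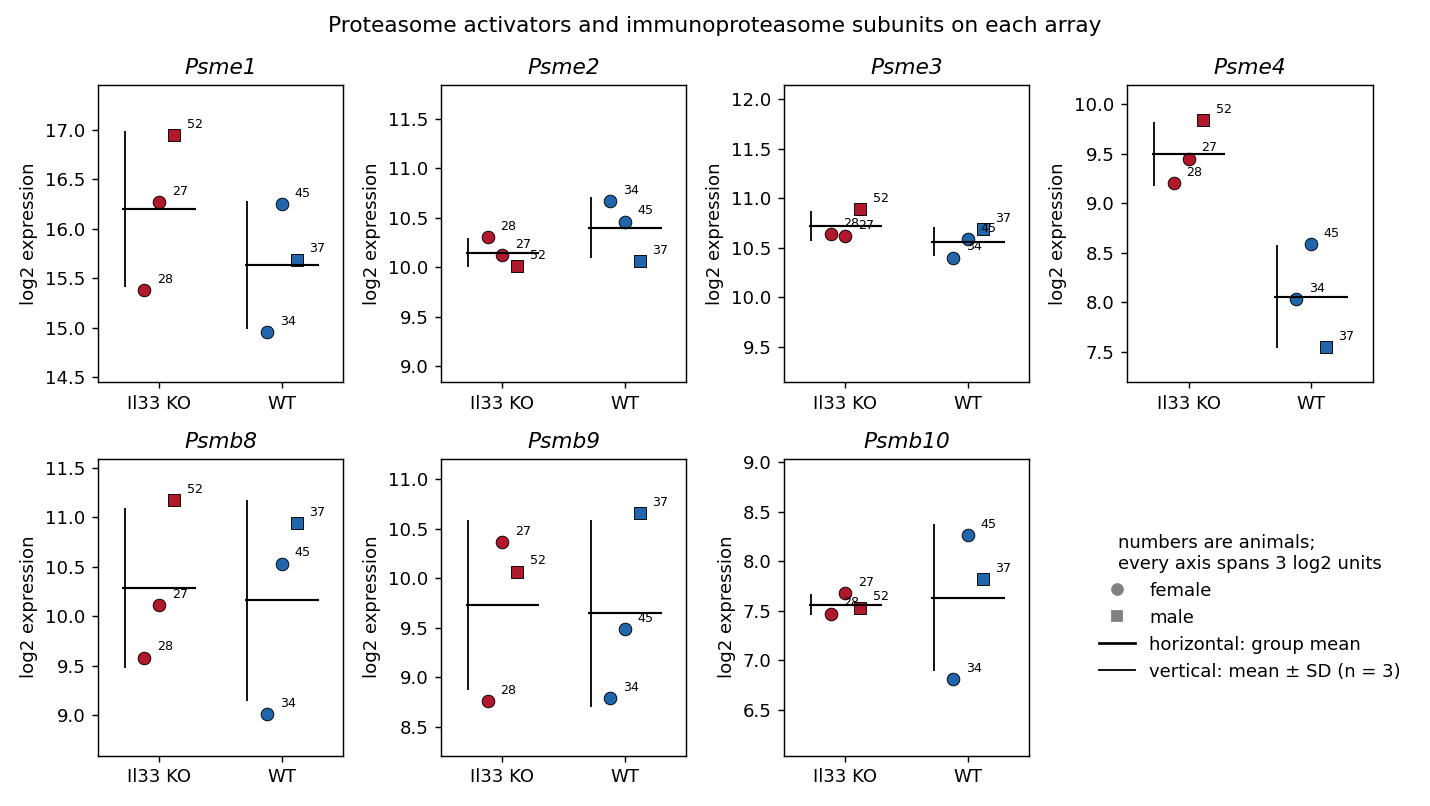
Log2 expression on each of the 6 arrays (vertical axis) for the caps Psme1 to Psme4 and the immunoproteasome subunits Psmb8 to Psmb10, one panel a gene, with knockout left of wildtype, circles for females, squares for males, and lines at the group mean and mean ± SD (n = 3 each). Psme4, for which the group was chosen, is the gene here whose knockout points (9.20 to 9.84) all lie above its wildtype points (7.55 to 8.59).

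The immunoproteasome subunits varied more between animals of a genotype than between genotypes. Psmb8, Psmb9 and Psmb10 take the places of Psmb5, Psmb6 and Psmb7 in newly made core particles. Psmb8 (LMP7) had 9.58, 10.11 and 11.17 in the knockout, against 9.01, 10.53 and 10.94 in the wildtype, a difference of 0.13 within SDs of 0.81 and 1.02. Psmb9 (LMP2) had 8.76, 10.37 and 10.07 in the knockout, against 8.79, 9.49 and 10.66 in the wildtype, a difference of 0.09. Psmb10 (MECL-1) had 7.47, 7.68 and 7.53 in the knockout, against 6.81, 8.26 and 7.82 in the wildtype, a difference of -0.07. Knockout 28 and wildtype 34 held the lowest values of all 3 genes. The same arrays had keratinocyte medians of 10.72 and 13.88. Wildtype 45 had a keratinocyte median of 10.84, 10.53 for Psmb8 and the highest Psmb10 value. Knockout 28 and wildtype 34 had fibroblast medians of 10.18 and 12.02, against 8.82 to 9.90 on the other arrays. Their leukocyte medians were 4.66 and 5.17, within the 4.18 to 5.35 of the other arrays. The part of keratinocytes, fibroblasts and leukocytes in the immunoproteasome values was not tested. With the keratinocyte median as a covariate the differences were -0.46 for Psmb8, -0.55 for Psmb9 and -0.32 for Psmb10.

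The constitutive partners, which carry the chymotrypsin-like, caspase-like and trypsin-like sites, showed the same overlap. Psmb5 had 6.48, 8.04 and 8.37 in the knockout, against 7.38, 7.41 and 9.08 in the wildtype, a difference of -0.33 over the widest range of any proteasome gene tested (2.60). Psmb6 had 9.49, 11.27 and 11.89 in the knockout, against 10.11, 10.91 and 11.20 in the wildtype, a difference of 0.14. Psmb7 had 12.68, 13.55 and 13.33 in the knockout, against 13.37, 13.70 and 13.64 in the wildtype, a difference of -0.38. All 3 were lowest on knockout 28.

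Over the core particle, most differences were below 0 and small. Among the 7 beta ring genes other than the immunoproteasome subunits the median difference of knockout minus wildtype was -0.25, with 1 higher and 6 lower in the knockout. Among the 7 alpha ring genes tested it was -0.19, with 2 higher and 5 lower, and the range ran from -0.71 for Psma4 to 0.65 for Psma1. Psma4 had 10.95, 11.28 and 12 in the knockout, against 11.87, 12.69 and 11.81 in the wildtype, so the knockout values were lower in females and the male pair was close. No alpha or beta gene separated the genotypes in the deposited values, but Psma2 and Psmb2 were lower in the knockout without overlap after a further quantile normalization of the arrays, which left 6 of the 45 genes without overlap, against 7.39% of all genes.

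The regulatory particle held the other gene without overlap. Psmd8, a lid subunit (Rpn12 in yeast), had 7.4, 7.47 and 7.35 in the knockout, against 7.93, 7.64 and 7.50 in the wildtype. All 3 knockout values were lower, with means of 7.41 ± 0.06 and 7.69 ± 0.22, and the difference was -0.28. After the further normalization its groups overlapped (difference -0.35), and Psmc3 and Psmd1 were among the 6 genes without overlap, both lower in the knockout. The 10 non-ATPase genes had a median difference of -0.15 (4 higher, 6 lower), between -0.53 for Psmd14, the lid deubiquitinase, and 0.34 for Psmd4, a ubiquitin receptor. Psmd2, the large scaffold of the base (Rpn1 in yeast), had the widest range of this class, with 9.18, 9.69 and 10.49 in the knockout, against 9.51, 8.54 and 10.42 in the wildtype. The 6 ATPases, which form the unfolding ring, had a median of -0.16 (2 higher, 4 lower), a count that stayed as it was after the further normalization. Psmc1 ranged most, with 9.01, 8.18 and 9.44 in the knockout, against 8.54, 7.74 and 9.06 in the wildtype, and Psmc5 least, over 0.40.

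The assembly factors and PI31 centred on 0. Of these 6 genes, 3 were higher and 3 lower in the knockout, between -0.21 for Psmf1, which encodes PI31, and 0.22 for Psmd9, a chaperone of the base. Psmd10 (gankyrin, 3.71 to 5) and Psmg4 (a chaperone of the alpha ring, 3.79 to 4.66) lay around the background probes too, so differences in them are poorly measured. Of the genes matched by symbol alone, Psmc3ip had 6.02, 5.72 and 5.49 in the knockout, against 5.82, 4.81 and 6.17 in the wildtype, and Psme3ip1 differed by -0.41, with overlap in the deposited values and without it after the further normalization (-0.47).

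Over all 45 genes the median difference was -0.08, with 18 higher (40%) and 27 lower in the knockout, against a median of 0.03 and 53.7% higher over all 11577 genes. Genes whose groups did not overlap numbered 2 of 45, against 6.25% of all genes, and 1 of 45 was higher without overlap, against 3.36% of all genes. The rule chose the group on this contrast, so these shares are descriptions. The members' median was 0.02 without knockout 28 and 0.08 without wildtype 37, so its sign turned on single arrays. It was -0.26 with the control signal as a block and -0.315 with the keratinocyte covariate, when all genes had -0.02 and -0.03.

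**Figure D2:**
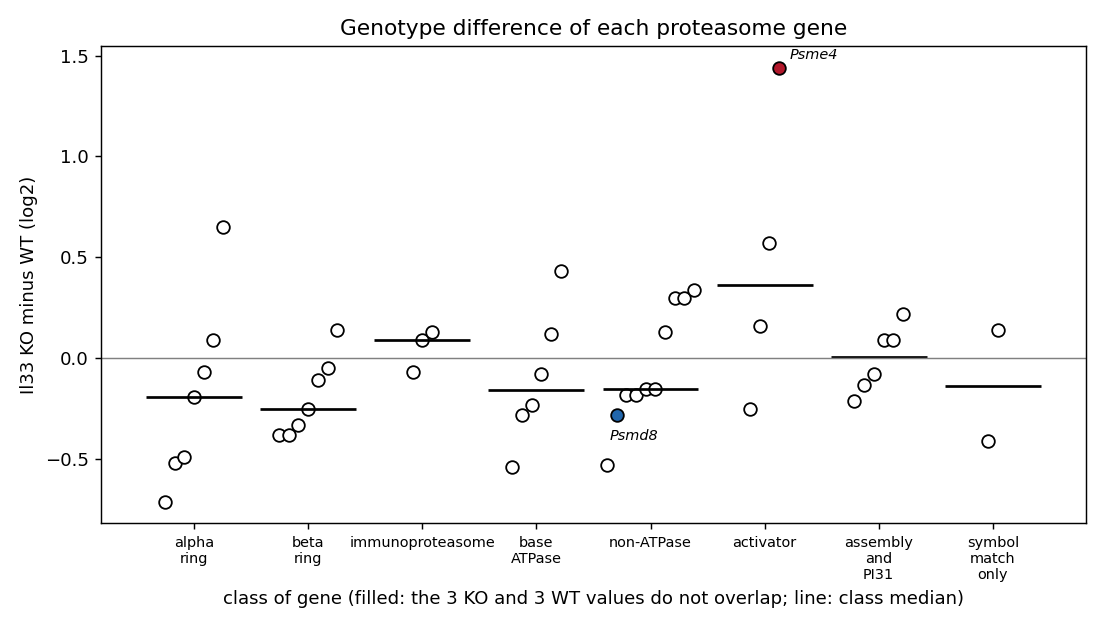
Difference in mean log2 expression, knockout minus wildtype, for each tested proteasome gene (one point each), grouped by class, with horizontal lines at the class medians. Psme4, for which the group was chosen on this contrast, is at 1.44, and the other genes lie between -0.71 and 0.65.

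Single animals set much of the spread. Relative to each gene's mean over the 6 arrays, the median deviation of the 45 genes was -0.33 on knockout 28, -0.02 on knockout 27 and 0.25 on knockout 52, and -0.12 on wildtype 34, 0.03 on wildtype 45 and 0.25 on wildtype 37. The corresponding medians over all genes lay between -0.10 and 0.12. Knockout 28 held the lowest value of 15 of the 45 genes (33.3%, against 19.1% of all genes), and knockout 52 the highest of 16 (35.6%, against 22.6%). Knockout 28 also had the highest erythroid median (9.25, against 5.18 to 7.22 on the other arrays). There the median fell between Alas2 (5.46) and Hba-a3 (13.04), with no marker near it. The globin genes Hba-a1, Hba-a3 and Hbb were all highest on knockout 28. The part of erythroid RNA in its proteasome values was not tested.

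**Figure D3:**
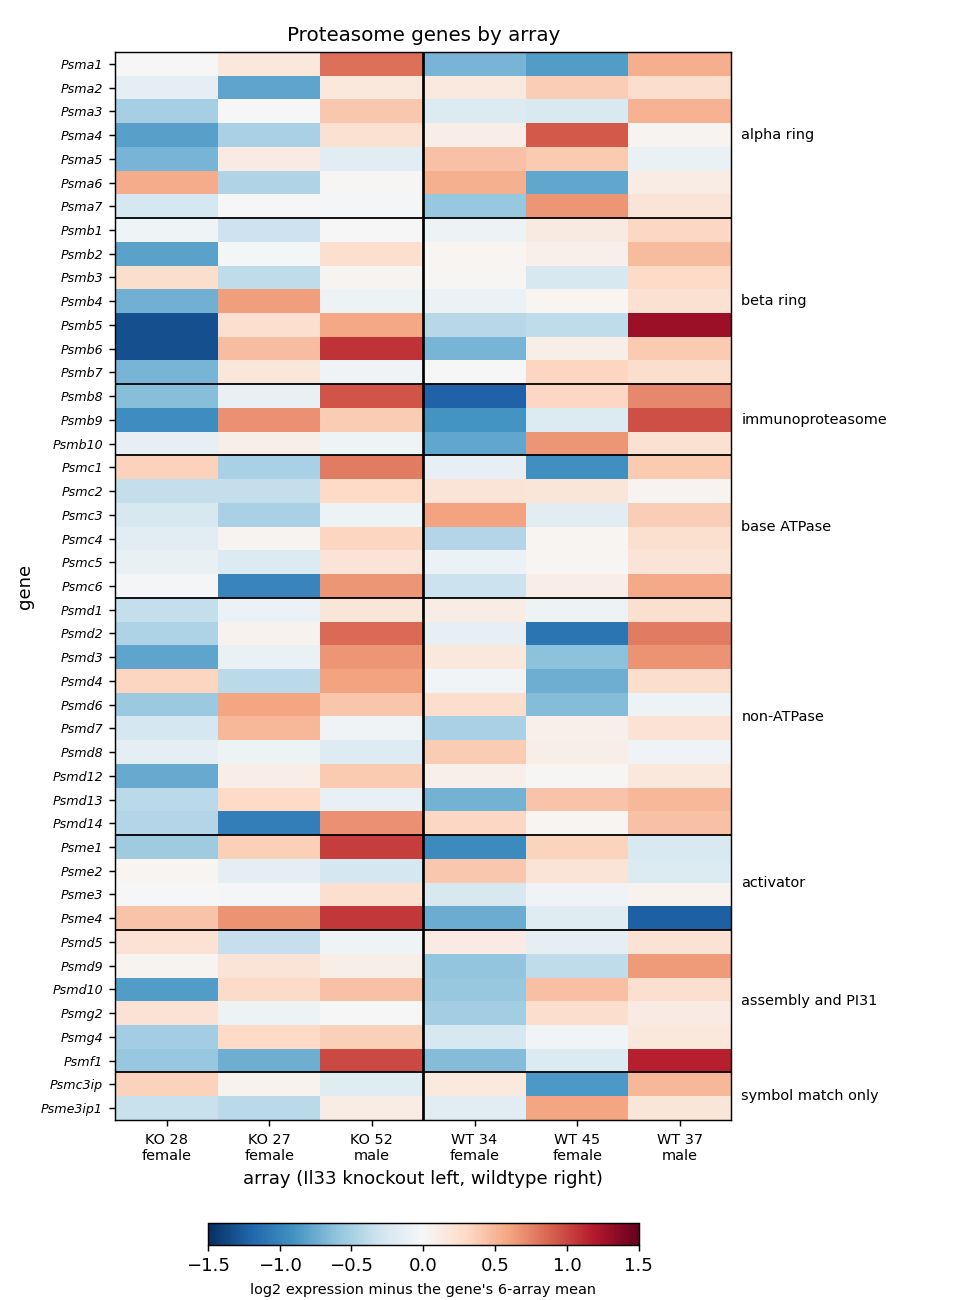
Log2 expression minus the gene's mean over the 6 arrays (colour) for the 45 tested genes (rows, by class) on each array (columns, knockout left and wildtype right). The male arrays 52 and 37 are mostly red, knockout 28 is blue for many core subunits, and the Psme4 row is red in the knockout and blue in the wildtype.

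Sex was compared as male minus female with genotype in the same limma model, on 2 males and 4 females. This contrast was not used to choose the genes, and of the 45 genes 0 were called by limma, with 8 at an unadjusted p under 0.05. Over all 11577 genes 3 were called (0.0259%), and the unadjusted p was under 0.05 for 2152, a share similar to that among the 45. Psmf1 had the smallest p of the 45. PI31, its product, binds the core particle and inhibits it in vitro. Psmf1 had 8.70 and 8.88 in the males, against 7.14, 6.98, 7.06 and 7.50 in the females. Both males lay above every female, by 1.62 on average (SE 0.31, limma adjusted p = 0.114), and the difference was 1.64 within the knockout and 1.6 within the wildtype. Psmd2 had 10.49 and 10.42 in the males, against 9.18 to 9.69 in the knockout females and 8.54 to 9.51 in the wildtype females (difference 1.23, SE 0.38, limma adjusted p = 0.163). Psma1, an alpha ring subunit, had 10.52 and 10.24 in the males, against 9.69 and 9.85 in the knockout females and 9 and 8.86 in the wildtype females (difference 1.03, SE 0.32, limma adjusted p = 0.163).

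In the deposited values 41 of the 45 genes were higher on average in males (91.1%, against 61.5% of all genes). After the further quantile normalization 21 were (46.7%, against 53.1%), so the direction of the group did not hold. When each array was centred on its median 41 were, but centring could not reverse the direction. It shifts all genes of an array alike, and the array medians were 4.63 in both males, against 4.69 to 4.77 in the females. The median difference of the 45 genes was 0.29 in the deposited values, against 0.18 over all genes, 0.385 with centring, against 0.28, and -0.081 after the further normalization, against 0.04. The deposited male arrays had 75th percentiles of 7.49 and 7.44, against 7 to 7.18 on the female arrays, and mean control signals of 8.82 and 8.91, against 9.33 to 10.42. Most proteasome genes are bright, and among the 8152 genes at or above the 50th percentile 73.8% were higher in males, beside 39 of the 43 proteasome genes there. Both males lay above all females for 16 of 45 genes (35.6%), against 23.4% of all genes and 30.4% of the bright ones, and below all females for 1, Psme2, against 8.29% of all genes. After the further normalization the count above was 5 (Psma1, Psmc6, Psmd2, Psmd3 and Psmf1) (11.1%, against 13.4% of all genes), and the count below 2 (Psmd8 and Psme2, 4.44%, against 9.69%). With the control signal as a block 30 of 45 were higher in males (66.7%, against 60.7% of all genes), and between male 52 and female 27 of the knockout 32 were (71.1%, against 59.9%). Markers of other cells moved with sex too: lymphatic endothelial medians (6 of 7 markers on the array) were 7.12 and 5.24 in the males, against 7.62 to 8.56 in the females, and Ccl21, a chemokine of that list and 1 of the 3 genes called, had 13.13 and 9.91, against 15.00 to 17.06 in the females. Keratinocyte medians were 7.98 and 7.51 in the males, against 7.98 to 13.88 in the females, and with them as a covariate 32 of 45 proteasome genes were higher in males (71.1%, against 61.9% of all genes). The part of lymphatic cells in the sex differences was not tested.

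**Figure D4:**
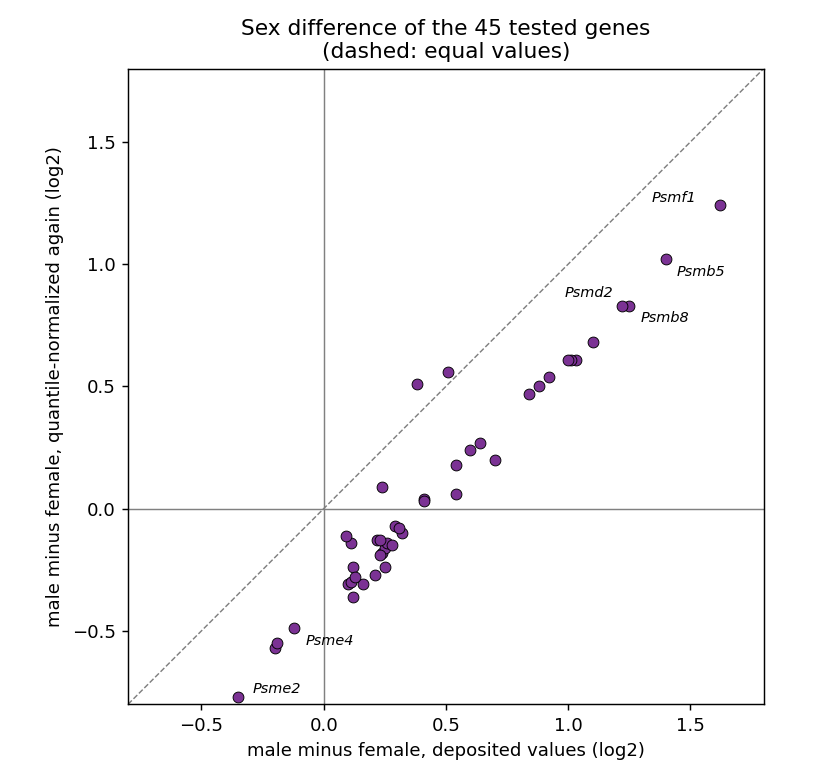
Male minus female difference in log2 expression of the 45 tested genes in the deposited values (horizontal axis) and after a further quantile normalization (vertical axis), with a dashed line where both are equal. Most points lie below the line, and Psmf1 is at 1.62 and 1.24.

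By class, all 7 beta ring genes were higher in males in the deposited values (median 0.25), but 3 of 7 were after the further normalization (median -0.16), and the 6 ATPases gave 6 (median 0.35) and then 3 (median -0.01). The 3 immunoproteasome genes gave 3 (median 1.01) and then 2 (median 0.61). The 6 assembly genes with PI31 gave 6 (median 0.45) and then 4 (median 0.35). Of the immunoproteasome genes, Psmb8 had 11.17 and 10.94 in the males, against 9.01 to 10.53 in the females (difference 1.25, SE 0.44, limma adjusted p = 0.194). After the further normalization the sexes overlapped for Psmb8, with 10.84 and 10.7 in the males and 10.81 in the female wildtype 45. The 4 genes lower in males in the deposited values were Psma5, Psmd8, Psme2 and Psme4, with differences from -0.12 for Psme4 to -0.35 for Psme2. Limma's interaction of genotype and sex called no gene (0%), with 0 of 45 proteasome genes and 119 of all genes at an unadjusted p under 0.05, a test with 1 male in each genotype.

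Genes that work beside the proteasome were listed with earlier results known, and limma called 0 of them between the genotypes or the sexes. Shuttle factors and parts of the p97 unfoldase (9 tested) had a median genotype difference of 0.46, with 7 higher and 2 lower in the knockout. Over all genes 53.7% were higher in the knockout. Zfand2a, a stress-induced proteasome partner (AIRAP), had 9.09, 10.42 and 10.69 in the knockout, against 8.22, 8.92 and 10.22 in the wildtype, and Ubqln2, a ubiquitin shuttle, had 8.67, 7.73 and 8.09, against 7.24, 7.14 and 7.92 in the wildtype. Regulators of proteasome transcription (7 tested) had a median of 0.45, with 6 higher and 1 lower, beside the same 53.7% of all genes. Nfe2l1 and Ddi2 of this list were not named on the array, and Ngly1 (3.75 to 4.76) lay around the background probes. Among them Hsf1, the heat shock regulator, had 7.93, 8.93 and 8.20 in the knockout, against 7.63, 7.21 and 7.91 in the wildtype. It was higher without overlap, as were 3.36% of all genes, although its groups did overlap when each array was centred on its median. Nfyc, a subunit of nuclear factor Y, differed by 0.53 with overlap.

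The remaining lists were small. All 5 MHC class I genes tested were higher in the knockout on average in the deposited values (median 0.30), when 53.7% of all genes were. After the further quantile normalization 4 of 5 were. B2m differed by only 0.03. In the male pair the differences of B2m, Tap2, Tap1 and Tapbp were 0, 0, -0.03 and 0.13. Tapbp, the peptide loading chaperone tapasin, had 11.11, 12.32 and 11.86, against 10.62, 10.86 and 11.73 in the wildtype, and Irf1, an interferon-induced regulator, differed by 0.56, with 1.11 in females and -0.54 in the male pair. Receptors and deubiquitinases of the proteasome (3 tested) had a median of -0.23, with Usp14 at -0.24 and Sem1 at -0.23. Other assembly and import factors (3 tested) had a median of 0.15, with Pomp, the maturation factor of the core, at -0.34 and Akirin2, its nuclear import adaptor, at 0.17. Of the 2 ubiquitin-activating enzymes tested, Uba1 differed by 0.32 and Uba6 by -0.16.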

How the data were processed

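The arrays are Affymetrix arrays hybridised with biotin-labelled DNA made from total RNA, per the labels. Values are used as deposited and read as log2 expression per probeset. The submitters' processing notes name RMA and Affymetrix Expression Console as the authors' tools, without versions. RMA corrects background, equalises distributions and summarises probes. The deposited distributions were not equal, with 75th percentiles of 7 to 7.18 on the female arrays and of 7.49 and 7.44 on the male arrays. The maximum per array is 19.70 to 19.93, high for scanned intensities, so the log2 unit rests on that reading.

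Of 24834 probesets, 1646 are controls and 15049 carry 1 gene symbol in the platform annotation. A minimum mean of 3.51, the 25th percentile of the non-control probesets, left 11577 genes. Genotype, sex beside genotype, and their interaction were fitted with lmFit and eBayes of limma 3.58.1 under R 4.3.3 over all these genes, with two-sided Benjamini-Hochberg adjusted p-values and a threshold of 0.05; the fit was tested on simulated data. The number of arrays limits the precision: the median standard error was 0.387 for genotype and 0.359 for sex. Each array is an animal of its own.

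The members and lists were chosen with earlier results of these data known. Values on all arrays are given for the Psme genes, the immunoproteasome genes and their partners, genes without overlap, the 3 smallest p between sexes and the widest range per class; of each other list the 2 largest genotype differences are named. Psmd11, Psmb11, Psmg1 and Psmg3 were not analysed here. Alternatives covered filters, scaling, covariates, eBayes options, probesets and single arrays; leaving out the 2 genes matched by symbol alone was chosen after seeing the data.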

Additional observations from a re-analysis of the deposited data

How the results depend on the processing

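The number of arrays, 3 in each genotype and 2 males, limits every comparison. The sex difference of the group reversed after a further quantile normalization, and centring on array medians could not reverse it. The Psme4 difference, the value that chose the group, was 1.02 with females only to 1.71 without wildtype 45. No genotype difference of another proteasome gene moved beyond the spread between replicates, but that spread is wide and some differences changed sign within it. Psmb8 ran from -0.46 with the keratinocyte covariate to 0.52 without wildtype 37. Psmb5 ran from -0.96 with the keratinocyte covariate to 0.25 without knockout 28. Psmf1 ran from -0.75 without knockout 52 to 0.33 without wildtype 37.

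Genes called between the genotypes numbered 1, and 0 with no filter, with a 50th percentile filter, with females only and with each probeset on its own. Leaving out single arrays gave 0 to 1 (0 without knockout 28, 27 or 52 or wildtype 45 or 37). Proteasome genes without overlap between the genotypes numbered 2, and 6 after a further quantile normalization (7.39% of all genes then) and 16 with females only, when 33.9% of all genes did not overlap. Without 1 array they numbered 3 to 11 (6, 5 and 11 without knockout 28, 27 and 52, and 9, 3 and 7 without wildtype 34, 45 and 37), when 12.7% to 24.2% of all genes did not overlap; with fewer arrays, groups overlap less by construction.

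Genes called between the sexes numbered 3, and 29 with centring on array medians, 26 with the trend and robust options, 713 with array weights, 5 with each probeset on its own, and 2 to 74 without single arrays (74 without knockout 27). Proteasome genes called between the sexes numbered 0, and 3 with array weights (Psmb5, Psmd2 and Psmf1). Their median sex difference was 0.29, 0.385 with centring on array medians, -0.081 after a further quantile normalization and 0.285 to 0.465 without single arrays (0.465 without wildtype 37). The cause of these changes was not tested. No paired analysis was possible because the animal numbers of the genotypes differ and do not pair the samples.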

Other observations

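Psmb8 and Psmb9 lie beside Tap1 and Tap2, the subunits of the peptide transporter of MHC class I, on chromosome 20 of GRCr8, in the order Tap2, Psmb8, Tap1, Psmb9. The arrays did not order these neighbours alike. Tap1 had 11, 10.27 and 10.90 in the knockout, against 10.15, 10.18 and 10.93 in the wildtype, and was highest on knockout 28, where Psmb9 was lowest (8.76). Tap2 had 6.32, 5.27 and 6.74 in the knockout, against 4.75, 6.05 and 6.74 in the wildtype, and was lowest on wildtype 34, as Psmb8 was (9.01). In the deposited values Psmb8 and Tap2 were higher in both males than in any female, as were 23.4% of all genes. Limma called neither between the sexes, and the Psmb8 values of the sexes overlapped after the further quantile normalization.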
